A study of Mus musculus with 10 samples.

Results

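The Toll-like receptor (TLR) genes of the mouse described here are Tlr1 to Tlr9 and Tlr13, 10 of the 23152 genes measured. They were chosen by gene symbol alone. A gene's value is the mean of the probe sets annotated to that symbol and no other, on a scale read as log2.

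The expression arrays were made from bone marrow progenitors of adult C57BL/6 mice, all negative for lineage markers and high in Flt3. Lymphoid-primed multipotent progenitors (LMPPs), high in cKit and Sca-1, were split into CD127− LMPPs (n = 3 arrays) and CD127+ LMPPs (n = 3). Common lymphoid progenitors (CLPs), low in cKit and Sca-1 and positive for CD127, were split into Ly6D− CLPs (n = 2) and Ly6D+ CLPs (n = 2). The study divided LMPPs by CD127, the α chain of the interleukin 7 receptor, and set both parts beside CLPs. The labels name no transgene, no treatment and no batch, and no Ly6D gate for LMPPs. Sample numbers of the CLP arrays do not follow on from those of the LMPP arrays. Any difference in handling between LMPP and CLP arrays therefore cannot be told apart from a difference between the cells. The labels do not say whether arrays of a group came from separate animals or sorts, and a p-value therefore speaks only to the spread among these arrays, which may be technical.

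TLRs are single-pass membrane receptors of innate immunity that recognise microbial products through leucine-rich repeats and signal through a cytoplasmic TIR domain. Tlr1, Tlr2, Tlr4, Tlr5 and Tlr6 act at the cell surface on lipoproteins, lipopolysaccharide and flagellin, whereas Tlr3, Tlr7, Tlr8, Tlr9 and Tlr13 act in endosomes on nucleic acids. Most TLRs signal through the adaptor Myd88 to NF-kappa B and interferon regulatory factors, and early hematopoietic progenitors are known to carry functional TLRs.

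Of the promoters in RefSeq (GRCm38.p6), 10 belonged to 8 of the 10 genes, and Tlr4 and Tlr7 had no entry. The Tlr2 promoter is shown because Tlr2 was one of the 2 receptors that differed between groups, and because some of the NF-kappa B genes described further on differed in the same comparisons. Those NF-kappa B genes rose where Tlr2 fell, and a link between them was not tested. These are the 250 bases before the start of Tlr2 on the minus strand, chr3:83841609-83841858. Capitals mark matches to the kappa B consensus and to the GC box GGGCGG:
Tlr2 promoter: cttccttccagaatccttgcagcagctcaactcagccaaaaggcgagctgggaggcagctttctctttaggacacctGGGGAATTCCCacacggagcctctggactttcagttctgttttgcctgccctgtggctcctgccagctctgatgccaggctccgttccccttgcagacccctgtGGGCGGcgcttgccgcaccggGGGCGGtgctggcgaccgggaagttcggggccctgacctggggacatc
The kappa B consensus matched at 173 and at 172 bases before the start, in overlapping positions, and the GC box at 69 and at 48. Both strands of the 250 bases before each start were searched. The kappa B consensus was present in 7.25% of all 32851 promoters in the table and the GC box in 32.7%. Among the TLR genes, Tlr3 also held the kappa B consensus and Tlr5 also held the GC box. The ETS core GAGGAA, found in 23.3% of promoters, was present for Tlr1, Tlr8, Tlr9 and Tlr13, and the RUNX site TGTGGT, found in 14% of promoters, for Tlr6. Matches describe letters only, and binding was not measured.

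Sort markers were read first as a check of the labels. Il7r, which encodes CD127, averaged 4.32 ± 0.44 (SD) in CD127− LMPPs and 9.10 ± 0.05 in CD127+ LMPPs. Ly6d averaged 5.88 ± 0.41 in Ly6D− CLPs and 11.33 ± 0.04 in Ly6D+ CLPs, and was also higher in CD127+ than in CD127− LMPPs, by 3.90 (adjusted p = 1.03e-06). Kit averaged 8.70 and 8.33 in CD127− and CD127+ LMPPs and 7.62 and 7.05 in Ly6D− and Ly6D+ CLPs, and Flt3 averaged 9.82 to 10.25 over the 4 groups. Ly6a, which encodes Sca-1, did not follow the Sca-1 gates: it averaged 5.82 ± 0.18 in CD127− LMPPs, 7.02 ± 0.59 in CD127+ LMPPs, 5.51 ± 0.66 in Ly6D− CLPs and 6.30 ± 0.66 in Ly6D+ CLPs, from 2 probe sets, and passed in no comparison. Within groups, pairs of arrays correlated across genes at Pearson r of 0.972 to 0.986, and array medians lay within 0.0493 of each other. Adjusted p-values in this text come from limma with Benjamini-Hochberg adjustment over all 23152 genes, and a gene is said to rise or fall where that value was under 0.05. As a reference for low signal, 1403 olfactory, vomeronasal and trace amine receptor genes were used, and the 95th percentile of their means was 4.43. Levels of different genes on an array are not comparable, so each receptor is set only against itself.

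Tlr7, the endosomal receptor for single-stranded RNA, was the TLR gene that differed most between the groups: it was about 2-fold higher in CD127+ LMPPs and in both CLP groups than in CD127− LMPPs. Tlr2, the surface receptor for bacterial lipoproteins, ran the other way and was lower in both CLP groups than in CD127− LMPPs. The other 8 receptors did not pass the threshold in any of the 6 pairwise comparisons. A test for any difference among the 4 groups called 1 of the 10 receptors, Tlr7 (F test, adjusted p = 0.00395), where 9.38% of all genes were called. Tlr2 had an adjusted p of 0.0665 in that test.

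**Figure D1:**
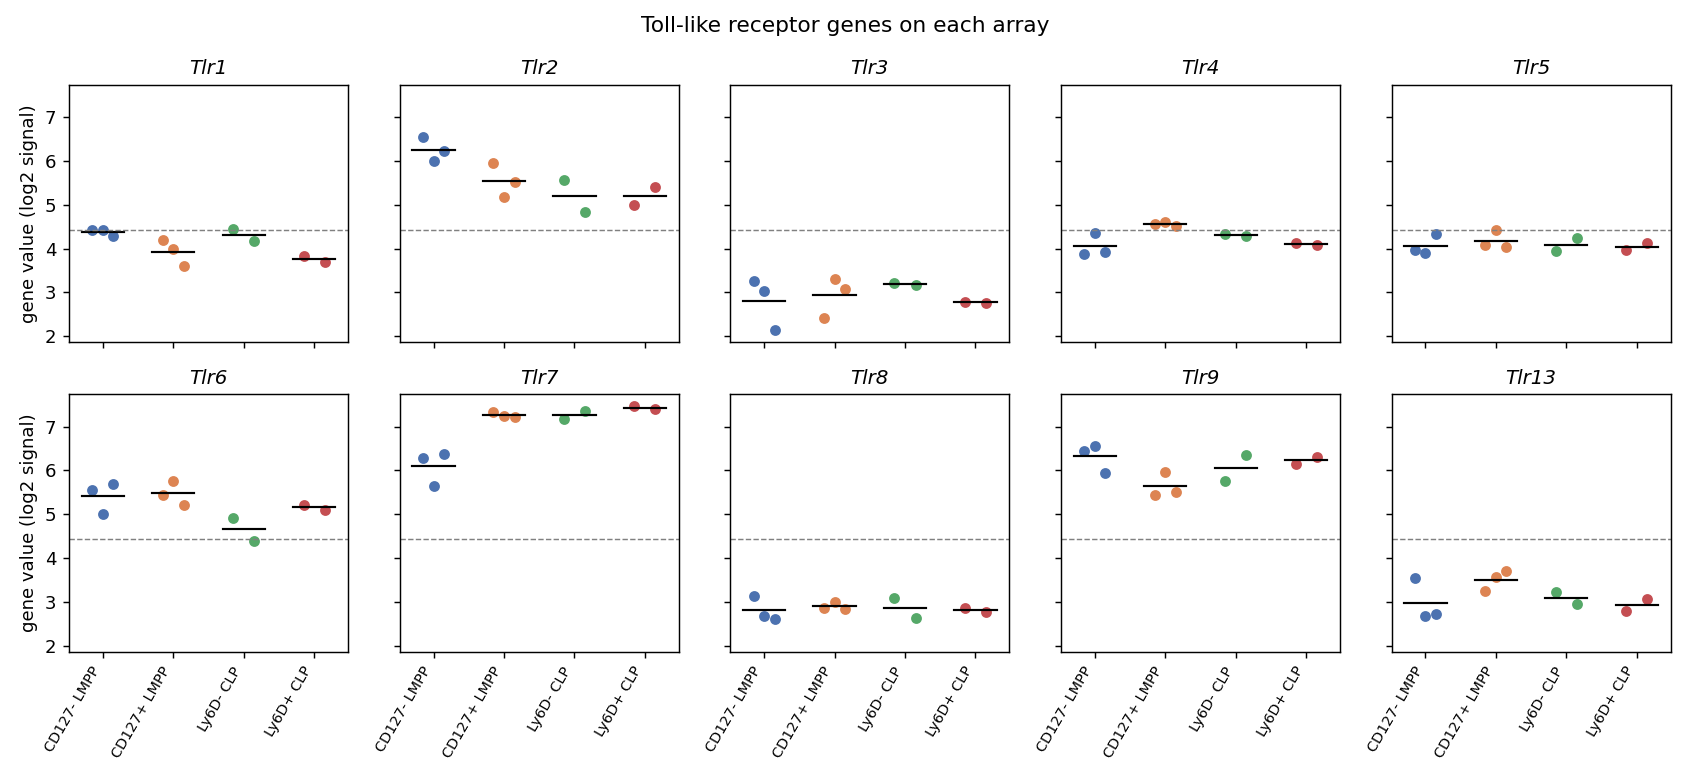
Values of the 10 TLR genes on each of the 10 arrays, 1 panel per gene, with the group on the horizontal axis and the mean log2 value of the gene's probe sets on the vertical axis. Points are arrays, short bars are group means and the dashed line is the low-signal limit of 4.43. Tlr7 lies between 5.65 and 6.38 in CD127− LMPPs and between 7.18 and 7.47 in the other groups.

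Only part of the family had gene values above the low-signal limit. Tlr2, Tlr6, Tlr7 and Tlr9 had a mean above it in all 4 groups, and Tlr4 in CD127+ LMPPs only. Tlr1, Tlr3, Tlr5, Tlr8 and Tlr13 had group means under it throughout, and no fold is given for these 5 genes. A gene value averages bright and dim probe sets, and single probe sets of these 5 genes did lie above the limit: 3 of 5 for Tlr1, 3 of 6 for Tlr5, 2 of 5 for Tlr13, 1 of 9 for Tlr3 and 1 of 7 for Tlr8. The brightest of Tlr1, for example, averaged 6.66, 6.87, 6.07 and 6.44 in CD127− LMPPs, CD127+ LMPPs, Ly6D− CLPs and Ly6D+ CLPs. The 10 genes had 61 probe sets in all, from 3 for Tlr9 to 9 each for Tlr3 and Tlr4. Of these, 33 had a mean above the limit in at least 1 group. The limit was drawn from gene means over the 10 arrays, whereas a probe set was held to it by its highest group mean. A probe set above the limit is therefore not shown to have detected RNA.

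Tlr7 read 6.29, 5.65 and 6.38 in the 3 CD127− LMPP arrays and 7.33, 7.24 and 7.22 in the 3 CD127+ LMPP arrays. It read 7.18 and 7.36 in Ly6D− CLPs and 7.47 and 7.39 in Ly6D+ CLPs. Every CD127− LMPP array was therefore lower than every array of the other groups, and the CD127− LMPPs also spread most, with an SD of 0.394 against 0.0551 to 0.132 elsewhere. The rise from CD127− to CD127+ LMPPs was 1.16 log2 (SE 0.183, 95% confidence interval 0.756 to 1.56, adjusted p = 0.00948), or 2.23-fold. Against the same CD127− LMPP arrays, Tlr7 was higher by 1.16 in Ly6D− CLPs (SE 0.204, adjusted p = 0.00764). The corresponding rise in Ly6D+ CLPs was 1.33 (SE 0.204, adjusted p = 0.00232). These 3 comparisons share the CD127− LMPP arrays and are not independent of each other. Without Ly6D− CLP array 2 the rise in that group was 1.07 and missed the threshold (adjusted p = 0.0536), and the brightest of its probe sets alone gave 0.64 (adjusted p = 0.109).

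Among the 3 CD127-expressing groups, Tlr7 differed by less than the spread could resolve. Ly6D− CLPs differed from CD127+ LMPPs by 0.01 (95% confidence interval −0.44 to 0.46, adjusted p = 0.992), and Ly6D+ CLPs by 0.17 (−0.28 to 0.62, adjusted p = 0.725). Ly6D+ and Ly6D− CLPs differed by 0.16 (−0.33 to 0.66, adjusted p = 0.875). The order of Tlr7 was thus CD127− LMPPs lowest, and differences among the other 3 groups did not pass the limma test. The 2 Ly6D+ CLP arrays lay above every array of the other groups, the closest values being 7.39 and, in Ly6D− CLPs, 7.36. Such separation is common: arrays did not overlap for 37.6% of all genes between the CLP groups. Between Ly6D+ CLPs and CD127+ LMPPs the share was 37.9%.

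The rise of Tlr7 was spread over its probe sets. It had 8, of which 7 were above the limit, and all 8 were higher in CD127+ than in CD127− LMPPs, by 0.78 to 1.70 (median 1.14). The arrays of the 2 LMPP groups did not overlap for 6 of the 8, where 6.13% of all probe sets separated in that direction. All 8 were also higher in Ly6D− CLPs than in CD127− LMPPs, by 0.42 to 1.63, with no overlap for 6 (16.3% of all probe sets). In Ly6D+ CLPs all 8 were higher by 0.60 to 1.99, with no overlap for 8 (17.1% of all probe sets). Probe sets of a gene read the same RNA and are not replicates.

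**Figure D2:**
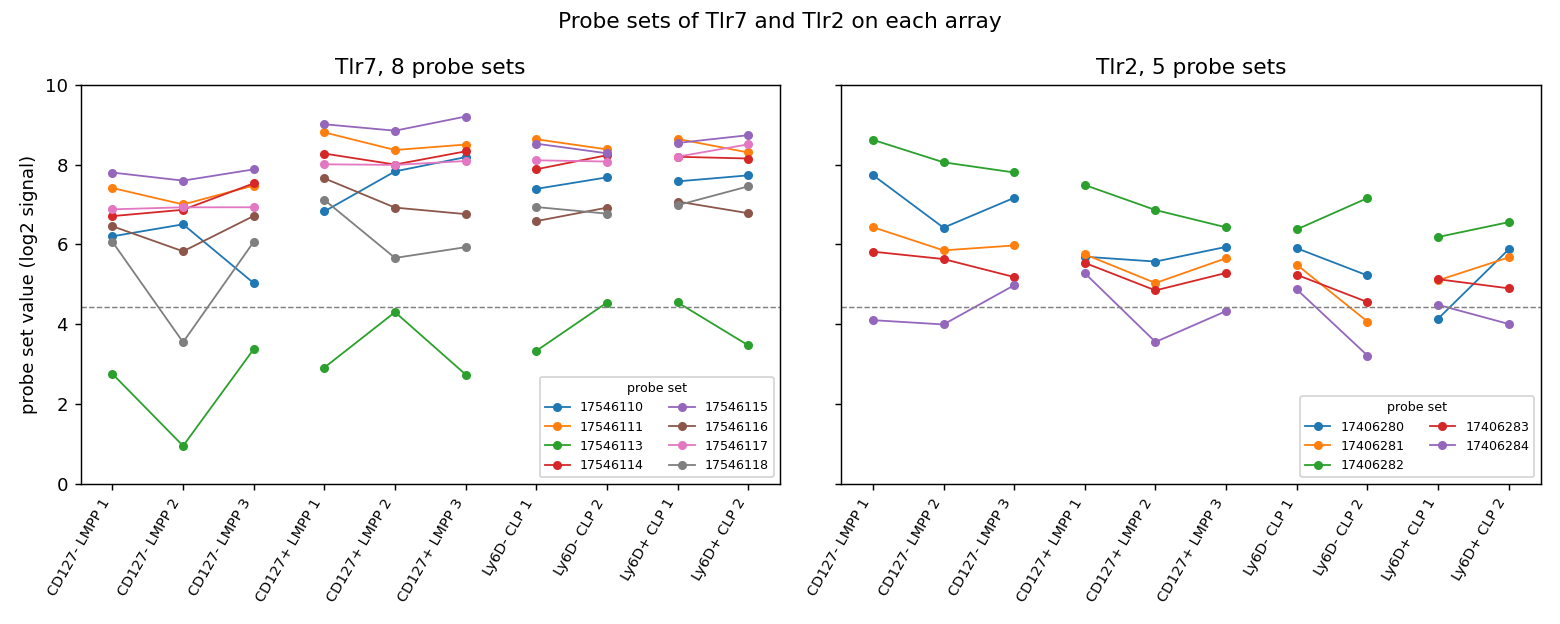
Every probe set of Tlr7 (8) and of Tlr2 (5) on the 10 arrays, with arrays by group on the horizontal axis and the deposited log2 value on the vertical axis. A line connects the values of 1 probe set within a group, and the dashed line is the low-signal limit of 4.43. All 8 Tlr7 probe sets averaged lower in CD127− LMPPs than in CD127+ LMPPs, and all 5 Tlr2 probe sets averaged higher in CD127− LMPPs than in either CLP group.

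Neither gene next to Tlr7 on the X chromosome passed the threshold in any comparison. Tlr8, its neighbour on one side and the other endosomal receptor for single-stranded RNA, stayed under the low-signal limit on every array, at 2.61 to 3.12. Prps2, the neighbour on the other side and a phosphoribosyl pyrophosphate synthetase gene, differed by −0.03 between the LMPP groups (adjusted p = 0.966). Over the 10 arrays the genes most like Tlr7, among 11055 compared, were Socs2 (Pearson r = 0.978), Tmed8 (r = 0.974) and Arpp21 (r = 0.970), chosen as the highest and given with no test. Socs2, a suppressor of cytokine signalling, read 3.69 to 4.14 in CD127− LMPPs, 4.70 to 4.81 in CD127+ LMPPs, 4.68 and 5.03 in Ly6D− CLPs and 5.11 and 5.13 in Ly6D+ CLPs. Arpp21, a cAMP-regulated phosphoprotein gene, read 4.48 to 5.12 in CD127− LMPPs and 6.92 to 7.59 in the other groups.

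Tlr2 read 6.54, 5.99 and 6.22 in CD127− LMPPs and 5.95, 5.17 and 5.53 in CD127+ LMPPs. It read 5.58 and 4.84 in Ly6D− CLPs and 5.01 and 5.40 in Ly6D+ CLPs. The CD127− LMPP arrays were the 3 highest of the 10, and the other groups overlapped each other. The difference of Ly6D− CLPs from CD127− LMPPs was −1.04 (SE 0.278, adjusted p = 0.0473), or 2.06-fold lower. That of Ly6D+ CLPs from the same arrays was −1.05 (SE 0.278, adjusted p = 0.0345), or 2.07-fold lower.

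Between the LMPP groups the Tlr2 difference was −0.70 (95% confidence interval −1.25 to −0.15), which did not pass the threshold (adjusted p = 0.289). Of its 5 probe sets 4 were lower in CD127+ LMPPs, with no overlap for 3, where 6.59% of all probe sets separated in that direction. All 5 Tlr2 probe sets were lower in Ly6D− CLPs than in CD127− LMPPs, with no overlap for 3 (15.1% of all probe sets separated that way). In Ly6D+ CLPs all 5 were lower as well, with no overlap for 4 (17% of all probe sets). The Tlr2 calls rested on single arrays and on how probe sets were combined. For Ly6D− CLPs the call was lost without CD127− LMPP array 1, 2 or 3, CD127+ LMPP array 3, Ly6D− CLP array 2 or either Ly6D+ CLP array, with differences of −0.68 (array 2 of Ly6D− CLPs left out, adjusted p = 0.274) to −1.17. For Ly6D+ CLPs it was lost without CD127− LMPP array 1 or 3, CD127+ LMPP array 3 or either Ly6D+ CLP array, with differences of −0.85 to −1.25. The median of the probe sets gave −1.06 for Ly6D− CLPs (adjusted p = 0.115) and −0.70 for Ly6D+ CLPs (adjusted p = 0.269).

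Tlr2 pairs with Tlr1 or with Tlr6, and these 2 genes lie next to each other on chromosome 5. Tlr6 read 5.56, 5.01 and 5.68 in CD127− LMPPs, 5.44, 5.76 and 5.22 in CD127+ LMPPs, 4.92 and 4.40 in Ly6D− CLPs and 5.21 and 5.10 in Ly6D+ CLPs. The 2 Ly6D− CLP arrays were the lowest of the 10 for Tlr6. The difference was −0.76 from CD127− LMPPs (SE 0.240, adjusted p = 0.0874) and −0.81 from CD127+ LMPPs (SE 0.240, adjusted p = 0.106), and neither passed the threshold. Without CD127− LMPP array 2 the first of these was −0.96 and passed (adjusted p = 0.0413). Tlr1 ranged from 3.61 to 4.44, with 2 of 10 arrays above the low-signal limit. Its largest difference was −0.61 between Ly6D+ CLPs and CD127− LMPPs (adjusted p = 0.0583), which passed without CD127+ LMPP array 1 (adjusted p = 0.0495) or array 3 (adjusted p = 0.0347). Klf3, a Krüppel-like repressor that flanks Tlr1, rose in CD127+ LMPPs by 1.19 (adjusted p = 0.00135), whereas neither Tlr1 nor Tlr6 rose.

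Tlr4, the lipopolysaccharide receptor, read 3.88, 4.36 and 3.92 in CD127− LMPPs and 4.56, 4.60 and 4.52 in CD127+ LMPPs. It read 4.34 and 4.29 in Ly6D− CLPs and 4.14 and 4.09 in Ly6D+ CLPs. The 3 CD127+ LMPP arrays were the highest of the 10, but the difference of 0.51 between the LMPP groups did not pass the threshold (SE 0.148, adjusted p = 0.173). Tlr5, the flagellin receptor, stayed between 3.89 and 4.42 on all 10 arrays, and its groups overlapped.

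Tlr9, the endosomal receptor for unmethylated CpG DNA, read 6.45, 6.56 and 5.95 in CD127− LMPPs and 5.45, 5.97 and 5.50 in CD127+ LMPPs. It read 5.76 and 6.34 in Ly6D− CLPs and 6.15 and 6.31 in Ly6D+ CLPs. CD127+ LMPPs had the lowest mean, 5.64 ± 0.28 (SD), and overlapped CD127− LMPPs by 1 array. The difference of −0.68 between the LMPP groups had a 95% confidence interval of −1.16 to −0.21 and an adjusted p of 0.222. Tlr9 shares its transport route with Tlr7, and between the LMPP groups the 2 genes had differences of opposite sign, of which only that of Tlr7 passed the threshold.

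The gene values of the remaining endosomal receptors were under the low-signal limit on every array. Tlr3, for double-stranded RNA, ranged from 2.13 to 3.31, Tlr8 from 2.61 to 3.12, and Tlr13, for bacterial ribosomal RNA, from 2.68 to 3.70. Tlr13 differed by 0.53 between the LMPP groups (adjusted p = 0.417). Tlr11 and Tlr12, which recognise profilin-like proteins and are not among the 10 genes, did not pass the threshold in any of the 6 comparisons either. Their largest difference was 0.91 for Tlr12 between Ly6D+ CLPs and CD127+ LMPPs (adjusted p = 0.0882).

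**Figure D3:**
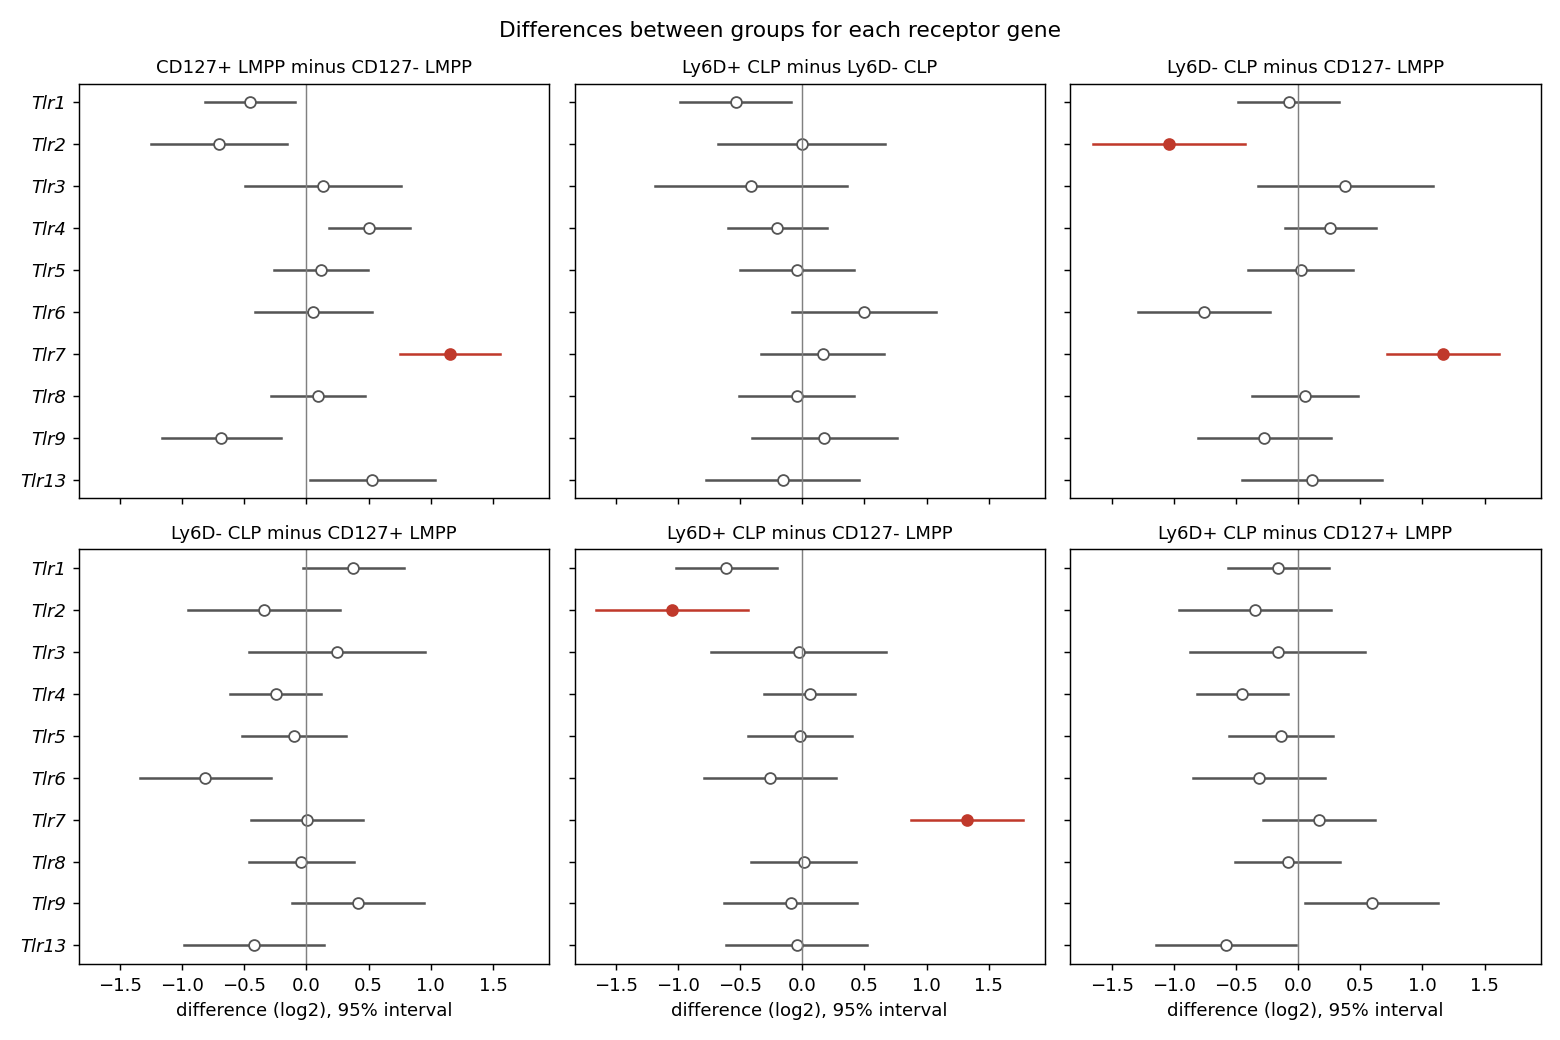
Differences of the 10 TLR genes in each of the 6 comparisons, with the difference in log2 value on the horizontal axis and genes on the vertical axis. Points are limma estimates, bars are 95% confidence intervals and filled points passed an adjusted p of 0.05. Tlr7 passed in the 3 comparisons against CD127− LMPPs and Tlr2 in the 2 of CLPs against CD127− LMPPs.

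Counted over the family, 1 of 10 receptors was called between the LMPP groups, where 1.47% of all genes were called. In each comparison of a CLP group with CD127− LMPPs, 2 of 10 were called, where 7.1% of all genes were called for Ly6D− CLPs and 10.9% for Ly6D+ CLPs. The limma count was 0 of 10 for Ly6D− CLPs against CD127+ LMPPs, where 2.06% of all genes were called. At an unadjusted p under 0.05 it was 1 of 10, beside 18% of all genes. For Ly6D+ CLPs against CD127+ LMPPs it was 0 of 10 (4.03% of all genes), with 3 at an unadjusted p under 0.05 (19.1%). Between the CLP groups it was 0 of 10 (0.0993%), with 1 at an unadjusted p under 0.05 (9.1%).

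The family as a whole had no common direction. The median difference of the 10 genes was 0.11 between the LMPP groups, against −0.01 over all genes, and lay between −0.16 and 0.04 in the other 5 comparisons. Arrays of the compared groups did not overlap for 4 of 10 receptors between the LMPP groups, where 17.7% of all genes separated. Against CD127− LMPPs, 3 of 10 separated for Ly6D− CLPs (36.6% of all genes) and 3 for Ly6D+ CLPs (42.5%). Against CD127+ LMPPs the counts were 3 (34.3%) and 5 (37.9%), and between the CLP groups 5 (37.6%). These last 5 counts lie near the shares of all genes, and that between the LMPP groups lies above its share.

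Genes that act with TLRs were counted from lists of co-receptors, transport factors, adaptors, kinases, transcription factors, inhibitors, inducible targets, interleukin 1 receptors and other pattern receptors, together with Tlr11 and Tlr12. Of their 125 measured genes, 6 rose and 6 fell from CD127− to CD127+ LMPPs, which is 9.6% of them, beside 1.47% of all genes. In each CLP group against CD127− LMPPs, 19 rose and 12 fell (24.8%), beside 7.1% of all genes for Ly6D− CLPs and 10.9% for Ly6D+ CLPs. Against CD127+ LMPPs, 4 rose and 1 fell in Ly6D− CLPs (4%, beside 2.06% of all genes). In Ly6D+ CLPs 7 rose and 6 fell (10.4%, beside 4.03%). Between the CLP groups none passed, beside 0.0993% of all genes. The lists were written with earlier results of these arrays known, so these shares describe the lists and support nothing.

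Among 7 co-receptors and ligand carriers, none rose in any comparison. Ly96, the MD-2 partner of Tlr4, read 5.62 to 5.73 in CD127− LMPPs, 5.53 to 5.66 in CD127+ LMPPs, 4.36 and 4.79 in Ly6D− CLPs and 4.21 and 4.03 in Ly6D+ CLPs. Every CLP array was lower than every LMPP array. Against CD127− LMPPs the difference was −1.11 in Ly6D− CLPs (adjusted p = 0.00289), and Ly6D+ CLPs, whose mean was under the low-signal limit, were at least 2.38-fold lower (adjusted p = 0.000212). The carriers of lipopolysaccharide fell as well. Lbp, which binds lipopolysaccharide in solution, fell by 1.44 in Ly6D− CLPs and by 1.82 in Ly6D+ CLPs (adjusted p = 0.00232 and 0.000306). Cd14, which hands it to the receptor, was at least 1.30-fold lower in each CLP group (adjusted p = 0.0287 and 0.0154), where its means were under the limit. Ly86, the MD-1 partner of Cd180, fell between the LMPP groups by 0.89 (adjusted p = 0.0152) and did not pass in the other 5 comparisons.

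Of the 11 genes for folding, transport and cleavage of endosomal receptors, Unc93b1, the chaperone that carries Tlr7 and Tlr9 to endosomes, moved against Tlr7. It read 8.60, 8.76 and 8.56 in CD127− LMPPs and 8.05, 7.80 and 7.66 in CD127+ LMPPs. It read 7.97 and 8.05 in Ly6D− CLPs and 7.87 and 8.03 in Ly6D+ CLPs. The CD127− LMPP arrays were all above the others, and the differences from them were −0.80, −0.63 and −0.69 for the 3 other groups in that order (adjusted p = 0.0176, 0.0377 and 0.0181). Ctsl, a cathepsin that cleaves endosomal TLRs, rose in Ly6D+ CLPs by 0.74 (adjusted p = 0.0305). The other 9 genes of that list, among them Hsp90b1 and Cnpy3, which fold TLRs, did not pass in any comparison. Against CD127+ LMPPs the largest difference on that list was that of Slc15a4, an endosomal transporter, at 0.56 in Ly6D− CLPs (adjusted p = 0.103).

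Of 6 adaptors, Myd88, Tirap, Ticam1, Ticam2 and Sarm1 did not pass in any comparison, and Pik3ap1, which links TLRs to phosphoinositide 3-kinase, rose in Ly6D− and Ly6D+ CLPs by 0.76 and 0.83 (adjusted p = 0.0236 and 0.0107). Of 19 kinases and ubiquitin ligases, Map3k8, the Tpl2 kinase that activates ERK below TLRs, rose by 0.91 in CD127+ LMPPs, 1.18 in Ly6D− CLPs and 1.75 in Ly6D+ CLPs (adjusted p = 0.0121, 0.00248 and 0.000137). Peli1, a ligase for Irak kinases, rose in both CLP groups by 0.59 and 0.55 (adjusted p = 0.0415 and 0.0420). Irak2, a kinase recruited by Myd88, rose in Ly6D− CLPs by 0.84 (adjusted p = 0.0269), where Tab1, a partner of the Tak1 kinase, fell by 0.87 (adjusted p = 0.0209). Traf3, a ubiquitin ligase, fell in Ly6D+ CLPs by 0.59 (adjusted p = 0.0407).

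Among 12 transcription factors, 3 rose and 1 fell from CD127− LMPPs to Ly6D− CLPs, and 3 rose and 0 fell in Ly6D+ CLPs. Of all genes, 7.1% and 10.9% were called there. The NF-kappa B genes, 5 of the 12, were not a list of their own. Of these 5, 2 rose in Ly6D− CLPs and 3 in Ly6D+ CLPs. From CD127− LMPPs to Ly6D− and Ly6D+ CLPs, Rel rose by 0.79 and 0.97 (adjusted p = 0.0239 and 0.00596) and Relb by 0.86 and 0.80 (adjusted p = 0.0415 and 0.0412). Rela rose in Ly6D+ CLPs by 0.62 (adjusted p = 0.0181) and not in Ly6D− CLPs (0.37, adjusted p = 0.158). Nfkb1 and Nfkb2 did not pass in any comparison. Between the LMPP groups Rel, Relb and Rela differed by 0.02, 0.10 and 0.18, none past the threshold, and whether the CLP change was larger was tested only as CLPs against CD127+ LMPPs, where Rel rose in Ly6D+ CLPs by 0.95 (adjusted p = 0.0146). The factors that act below Tlr7 and Tlr9 differed in direction. In CD127+ LMPPs Irf7 rose by 0.74 (adjusted p = 0.0347) and Irf8 fell by 1.03 (adjusted p = 0.0257), and Irf5 fell in Ly6D− CLPs by 0.79 (adjusted p = 0.0400). Irf1 rose in Ly6D− CLPs by 0.65 (adjusted p = 0.0316).

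Among 17 genes listed as inhibitors, Irak3, which blocks Irak signalling, followed the pattern of Tlr7 in reverse. It read 5.49, 5.58 and 5.24 in CD127− LMPPs, 4.40, 4.58 and 4.47 in CD127+ LMPPs, 4.07 and 4.35 in Ly6D− CLPs and 4.25 and 4.42 in Ly6D+ CLPs, the CLP means being under the low-signal limit. It fell by 0.95 in CD127+ LMPPs (adjusted p = 0.00806) and was at least 2.00-fold lower in each CLP group (adjusted p = 0.00178 and 0.00187). The 4 genes of this list that rose from CD127− LMPPs to each CLP group were Tnfaip3, Nfkbie, Nfkbiz and Zc3h12a. Tnfaip3, the A20 enzyme, rose by 1.34 and 1.39, and Nfkbie by 1.11 and 1.38. Nfkbiz rose by 1.11 and 1.24, and Zc3h12a, which degrades cytokine mRNA, by 0.70 and 0.87. Adjusted p-values of these 4 genes ran from 0.00087 to 0.0303. Nfkbia, the best known inhibitor of NF-kappa B, differed by 0.28 and 0.21 (adjusted p = 0.447 and 0.565). Lilrb3, an inhibitory receptor, was at least 1.24-fold lower in Ly6D+ CLPs than in CD127+ LMPPs (adjusted p = 0.0347).

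Among 22 inducible targets of TLRs, Il10, an anti-inflammatory cytokine, rose by 2.38 and 2.65 in Ly6D− and Ly6D+ CLPs (adjusted p = 0.000807 and 0.000192). Cd86, a costimulatory ligand, rose by 0.80 in CD127+ LMPPs and by 1.68 and 1.54 in the CLP groups, and Il12a by 0.95 and 1.02 in the CLP groups. Tnf rose in Ly6D+ CLPs by 0.91 (adjusted p = 0.0203). The chemokines Ccl3 and Ccl4 fell in Ly6D− CLPs by 0.83 and 0.97 and in Ly6D+ CLPs by 1.75 and 1.67. The list did not move in 1 direction, and Il6, Il1b and Ifnb1 did not pass in any comparison.

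Of the 8 measured genes of the interleukin 1 receptor family, which shares the TIR domain with TLRs, Il18r1 rose by 1.52 in CD127+ LMPPs, 2.36 in Ly6D− CLPs and 2.97 in Ly6D+ CLPs (adjusted p = 0.000578, 6.02e-05 and 3.53e-06). Its partner chain Il18rap rose by 1.15, 1.58 and 1.62, and the decoy receptor Il1r2 by 0.97, 1.42 and 1.63. Il1r1, the signalling receptor for interleukin 1, fell by 0.78 from CD127+ LMPPs to Ly6D+ CLPs (adjusted p = 0.0180). Of 21 other pattern receptors, the fungal receptor Clec7a was at least 3.02-fold lower in CD127+ LMPPs and in each CLP group than in CD127− LMPPs. Nlrp3, an inflammasome sensor, rose in the CLP groups by 1.08 and 1.30. Nlrc4, which acts with Naip proteins on flagellin, fell in CD127+ LMPPs by 1.17 (adjusted p = 0.0302), and it also fell in each CLP group. Clec4d and Clec4e, lectins for mycobacterial glycolipid, were at least 1.35-fold and 2.15-fold lower in Ly6D+ CLPs (adjusted p = 0.00166 and 0.0104). Clec4d also fell in Ly6D− CLPs. Ddx58, the RIG-I sensor of viral RNA, rose in Ly6D− CLPs by 0.67 (adjusted p = 0.0391). Between the CLP groups the largest difference on any of these lists was −0.92 for Ccl3 (adjusted p = 0.0667).

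**Figure D4:**
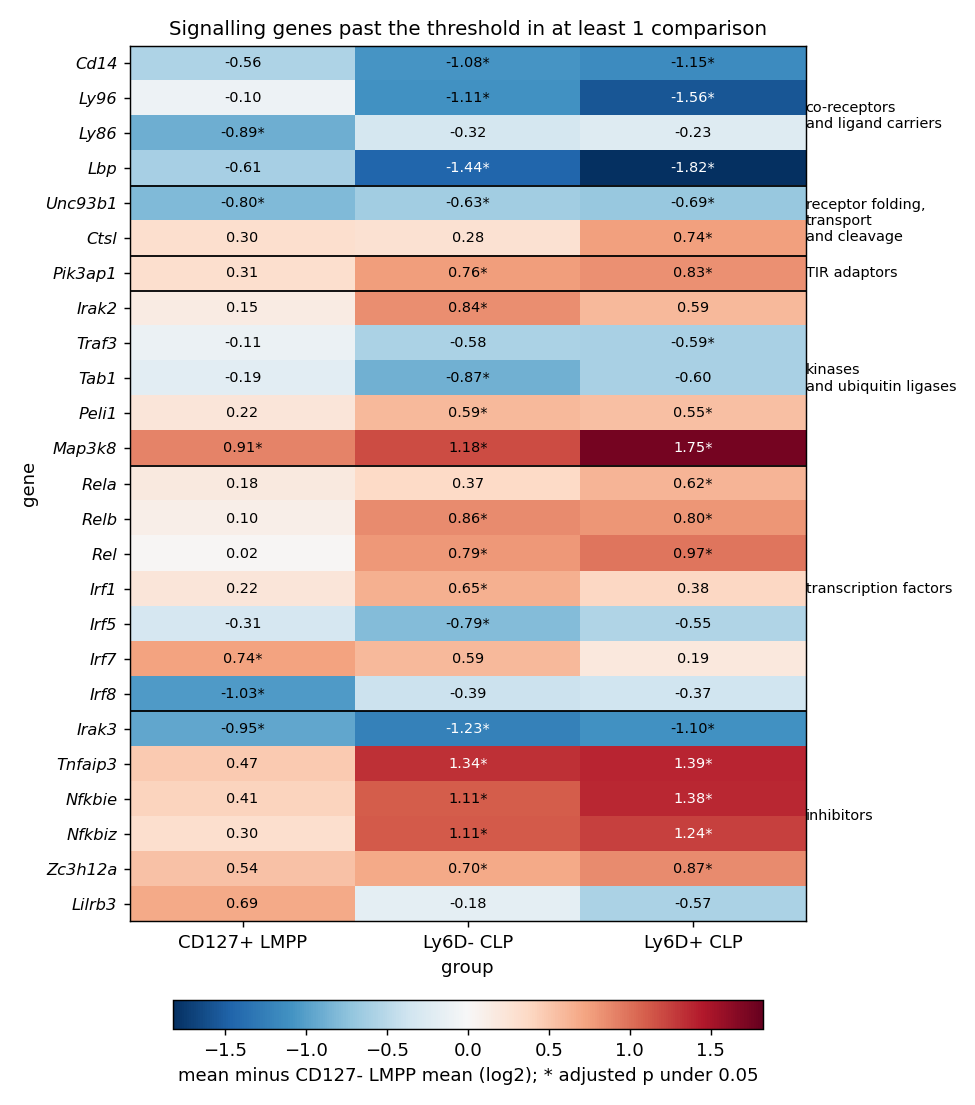
Genes of the TLR pathway lists that passed an adjusted p of 0.05 in at least 1 comparison, in rows grouped by role, with columns for CD127+ LMPPs, Ly6D− CLPs and Ly6D+ CLPs. Colour is the group mean minus the CD127− LMPP mean in log2, and an asterisk marks a comparison with CD127− LMPPs that passed. Unc93b1 and Irak3 are lower in all 3 columns, and Map3k8 is higher in all 3.

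Markers of other marrow cells also differed between the groups, and their part in the TLR results was not tested. In bulk samples fewer cells of a type and less RNA per cell cannot be told apart. The macrophage and monocyte list (9 measured genes, Emr1 and Mertk under the low-signal limit in every group) averaged 6.97 to 7.39 per array in CD127− LMPPs and 5.89 to 6.14 in CD127+ LMPPs. It averaged 5.84 to 6.04 in Ly6D− CLPs and 5.37 to 5.58 in Ly6D+ CLPs. From CD127− to CD127+ LMPPs 6 of its 9 genes fell, where 1.47% of all genes were called. Tlr2, Cd14, Clec7a and Unc93b1 were likewise highest in CD127− LMPPs.

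The plasmacytoid dendritic cell list is set beside Tlr7 because those cells are known for Tlr7 and Tlr9. Its 10 genes averaged 6.31 to 6.43 per array in CD127− LMPPs, 6.63 to 6.71 in CD127+ LMPPs, 6.55 to 6.60 in Ly6D− CLPs and 6.72 to 6.83 in Ly6D+ CLPs. From CD127− to CD127+ LMPPs 2 of the 10 rose, Siglech by 0.90 (adjusted p = 0.0193) and Cox6a2 by 1.70 (adjusted p = 0.000274). None fell, and 1.47% of all genes were called there. Siglech, a surface lectin of those cells, averaged 5.59, 6.49, 7.71 and 8.92 from CD127− LMPPs through CD127+ LMPPs, Ly6D− CLPs and Ly6D+ CLPs. From CD127+ LMPPs to each CLP group Siglech alone of the list rose, by 1.22 (adjusted p = 0.0122) and 2.43 (adjusted p = 0.000133). In each of these comparisons 1 gene of the list fell. Cox6a2 averaged 8.32, 10.01, 10.07 and 10.56 in the same order of groups, and Tlr7 averaged 6.10, 7.26, 7.27 and 7.43. In both CLP groups Bst2 and Ly6c2 of the same list fell from CD127− LMPPs, and Klk1 was under the low-signal limit in every group. In that order of groups Bst2 averaged 9.11, 9.02, 8.31 and 8.55, and Ly6c2 averaged 9.30, 8.44, 7.40 and 7.32.

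The B lineage list (9 measured genes) averaged 4.35 to 4.39 in CD127− LMPPs, 5.30 to 5.55 in CD127+ LMPPs, 5.20 to 5.29 in Ly6D− CLPs and 6.51 to 6.57 in Ly6D+ CLPs. The B lineage genes Ebf1 and Rag1 rose further from Ly6D− to Ly6D+ CLPs, by 2.55 and 2.60, while Tlr7 did not pass there. Of the neutrophil list 6 of 10 genes rose from CD127− to CD127+ LMPPs, where 1.47% of all genes were called. Its gene Ly6g was under the low-signal limit in every group. Mmp8 and Cxcr2 of that list went the other way, though neither passed. They averaged 5.22 and 5.61 in CD127− LMPPs and 4.59 and 5.09 in CD127+ LMPPs. The neutrophil list averaged 6.47 to 7.25 in CD127+ LMPPs against 4.58 to 5.63 over the arrays of the other 3 groups. The Tlr4 arrays of CD127+ LMPPs were likewise the highest of the 10.

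**Figure D5:**
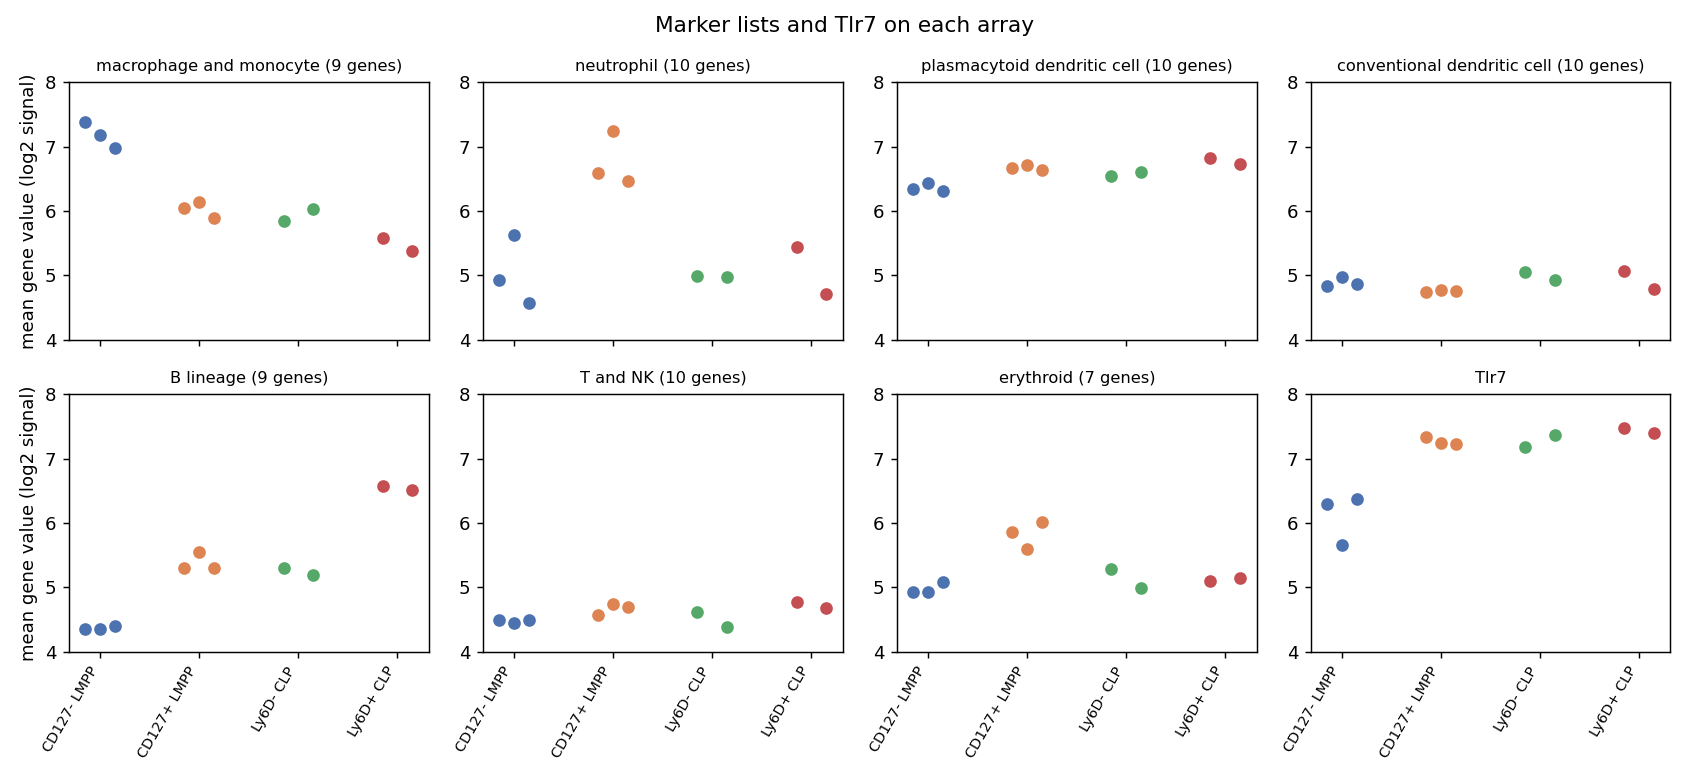
Mean log2 value per array of 7 marker gene lists and of Tlr7, with the group on the horizontal axis and 1 panel per list. Points are arrays. The macrophage and monocyte list is highest in CD127− LMPPs (6.97 to 7.39), the neutrophil list in CD127+ LMPPs (6.47 to 7.25) and the B lineage list in Ly6D+ CLPs (6.51 to 6.57).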

How the data were processed

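Total RNA of 10 sorted samples was hybridised to Affymetrix arrays. Affymetrix Power Tools is the software in the submitters' processing notes. The authors' deposited table holds values read here as log2 signal, 1 for each of 269751 probe sets per array. The log base, summary method, normalization and genome build are unknown here. No further normalization was applied. The 233753 probe sets annotated to 1 symbol gave 23152 gene means, and 5106 with several symbols and 30892 with none were left out. All 10 members matched the RefSeq gene table.

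A mean per group was fitted with limma 3.58.1 in R 4.3.3 over all arrays and genes, with default empirical Bayes settings, 6 pairwise contrasts and the moderated F test. Where a dimmer group mean lay under the low-signal limit, the fold is a bound against that limit. The fit was tested on simulated data. Python 3.11.15 drew the figures. The members and lists were chosen with earlier results of these data known, and the kappa B consensus after the promoter was seen. All 10 receptors are named with their values. From each pathway list, up to 4 members past the threshold per comparison were to be named, by size, or else the member with the largest difference. Further list members, the marker genes, and Klf3, Prps2 and Tlr8 as neighbours, were named after their values were seen. Likeness to Tlr7 covers genes with 2 or more probe sets and a group mean above the limit. The alternatives were quantile normalization, median centring, other ways to combine probe sets, a filter on dim genes, trend and robust settings, only the compared arrays, a replicate block, a 2-fold threshold, both CLP groups together, and each array left out in turn.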

Additional observations from a re-analysis of the deposited data

How the results depend on the processing

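Between the LMPP groups Tlr7 passed the threshold under all 19 alternatives, with differences of 0.93 to 1.29 and adjusted p of 0.000355 to 0.0495, and the count of receptors stayed at 1. In Ly6D+ CLPs against CD127− LMPPs it passed under all 20. In Ly6D− CLPs against CD127− LMPPs it passed under 17 of 20 and missed with the brightest probe set (0.64, adjusted p = 0.109), with the compared arrays only (adjusted p = 0.0503) and without Ly6D− CLP array 2 (adjusted p = 0.0536). Tlr2 passed under 7 of 20 alternatives in Ly6D− CLPs (adjusted p 0.0133 to 0.274) and 14 of 20 in Ly6D+ CLPs (0.0106 to 0.269). The cause was not tested.

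The count of 2 receptors in Ly6D− CLPs against CD127− LMPPs became 1 with quantile normalization, median centring, the median of probe sets or the replicate block, 0 with the brightest probe set or the compared arrays only, and 0 to 2 with an array left out. It was 3 with the filter on dim genes or trend and robust settings, which called Tlr6. In Ly6D+ CLPs the count of 2 became 1 with the median of probe sets, 3 with the compared arrays only, and 1 to 3 with an array left out. The F test called 2 with probe sets above the limit, the filter on dim genes or trend and robust settings, and 1 to 2 with an array left out. Against CD127+ LMPPs and between the CLP groups no alternative called a receptor.

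Same-numbered arrays of different groups deviated together at r of −0.043 to 0.127. Groups of 2 or 3 arrays cannot show by such values whether the numbers pair the samples. With the replicate block, receptors called were 1 between the LMPP groups, 1 in Ly6D− CLPs and 3 in Ly6D+ CLPs against CD127− LMPPs, 0 in the other 3 comparisons and 1 in the F test.

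Genes called were counted over the 9 alternatives (8 for the F test) other than a left-out array, the 2-fold threshold and both CLP groups together. The filter on dim genes and the setting with probe sets above the limit tested fewer than 23152 genes. Counts ranged from 88 to 581 between the LMPP groups (341 as reported) and from 1 to 78 between the CLP groups (23). Against CD127− LMPPs they ranged from 664 to 2551 for Ly6D− CLPs and 1364 to 3510 for Ly6D+ CLPs (1643 and 2517). Against CD127+ LMPPs they ranged from 22 to 1398 and 429 to 1954 (476 and 933), and in the F test from 1042 to 3516 (2171). The lowest counts with an array left out were 165, 6, 808, 1001, 76, 194 and 1199 in that order. An array left alone in its group was assumed to vary like the others. Differences called under neither setting changed sign in 102 of 1150 recomputed values, of at most 0.54 as reported. Gene values under the low-signal limit restrict what can be said of Tlr1, Tlr3, Tlr5, Tlr8 and Tlr13.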
